A study of Homo sapiens with 6 samples.

Results

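miR-155 and miR-146 are microRNAs (miRNAs) best known from inflammation, and 5 of their mature arms, hsa-miR-155-5p, hsa-miR-155-3p, hsa-miR-146a-5p, hsa-miR-146b-5p and hsa-miR-146b-3p (the prefix for human is left out below), were followed here by probe name among the 2565 miRNA probes of the array. The samples came from Panc-1, a long-established cell line of human pancreatic ductal adenocarcinoma, with 3 control arrays (TGF-β at 0 ng/mL) and 3 arrays of cells kept for 72 h in 10 ng/mL of TGF-β. TGF-β is a secreted cytokine that was used to induce the epithelial-mesenchymal transition, and the question was how the level of each arm differed between treated and control cells. Total RNA was labelled with Cy5 and read in 1 colour, with a single spot per miRNA. All samples were of 1 cell line, and the labels do not say whether the arrays of a group came from separate cultures, so that p-values measure only the spread between these arrays.

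A miRNA precursor is cut into a 5p and a 3p arm, and the arm that is loaded into an Argonaute protein guides it to messenger RNAs through bases 2 to 8, called the seed. miR-155 is processed from the transcript of MIR155HG, also called BIC, which is induced in activated lymphocytes and macrophages, and its 5p arm is the one mostly studied. miR-146a and miR-146b come from separate genes, are induced by NF-κB signalling and are known for repressing IRAK1 and TRAF6, signalling proteins downstream of Toll-like receptors. miR-146a has also been described as a regulator of SMAD4, a mediator of TGF-β signalling, and miR-155 as a TGF-β-induced miRNA that targets RHOA in epithelial cells.

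The mature sequences of these arms are shown because they tell which arms are alike enough to be confused by a probe. They are from RefSeq on GRCh38.p14, written 5′ to 3′ with the seed in capitals.
miR-155-5p: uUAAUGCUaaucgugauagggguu
miR-155-3p: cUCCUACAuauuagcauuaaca
miR-146a-5p: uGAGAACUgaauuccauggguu
miR-146b-5p: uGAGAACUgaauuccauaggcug
miR-146b-3p: gCCCUGUGgacucaguucuggu
The 5p arms of miR-146a and miR-146b had the same seed, while the other 3 arms each had a seed of their own. To compare the 5p arms of miR-146 with each other, they are written again with the bases that differ in capitals.
miR-146a-5p: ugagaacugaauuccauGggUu
miR-146b-5p: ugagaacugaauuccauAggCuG
Counted from the 5′ end of miR-146a-5p, the differences were G18A and U21C, and miR-146b-5p was longer by 1 base. The first 17 bases were the same, as were 20 of the 22 positions compared. The probe sequences were not analysed here, and how far the probes of the 2 miRNAs tell them apart was not tested.

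The precursor gene MIR155 lies on chromosome 21 from 25573980 to 25574044, inside the lncRNA gene MIR155HG (25562145 to 25575168). MIR146A lies on chromosome 5 from 160485352 to 160485450, inside the lncRNA gene MIR3142HG (160468251 to 160487426). MIR146B lies on chromosome 10 from 102436512 to 102436584, and no other gene of the RefSeq table overlapped it. Its nearest neighbour was CUEDC2, a protein-coding gene 3937 bp away. The array files carry no coordinates. Of the 2565 array names, 2253 matched a RefSeq mature miRNA by name, and among these only miR-7153-5p shared a seed with any of the 5 arms, namely the miR-146 seed, beside the miR-146 5p arms themselves. It was detected on none of the arrays. Apart from the miR-146 5p arms, no matched miRNA lay within 4 edits of any of the arms. The closest to miR-155-5p differed by 9 edits.

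A miRNA was called detected on an array when its signal exceeded the mean of the blank spots by 2 SD, which was 19.5 to 22.8 intensity units, and 1531 to 1787 miRNAs passed on an array. Levels below are the signal above the blank mean in intensity units, or normalized log2 values after quantile normalization between arrays. The control arrays shared 1 slide and the TGF-β arrays another, and an effect of the slide and one of the treatment cannot be told apart. Markers of epithelial cells in general were partly absent: miR-141-3p was detected on 0 of 6 arrays, and miR-200c-3p on 1 control and 0 TGF-β arrays. The epithelial miR-200b-3p and miR-200a-3p were detected on all 6 arrays and miR-205-5p on 1 TGF-β array. Of 4 miRNAs of pancreatic acinar and islet cells, 2 were detected on no array and none was detected on every array of a group. Of 7 blood cell miRNAs, which matter here since leukocytes are rich in miR-155 and miR-146a, 3 were detected on all arrays. Their summed signal above blank was 33.8 to 44.5 units on the control arrays and 33.4 to 38.9 on the TGF-β arrays, and the erythroid miR-451a was detected on 2 control and 3 TGF-β arrays. The erythroid miR-486-5p, the brightest of them, had 19.7 ± 2.33 (SD, n = 3) units above blank on the control arrays and 14.6 ± 0.656 (SD, n = 3) on the TGF-β arrays, which did not overlap (log2 fold change -0.41, adjusted p = 0.217 from limma). The lymphocyte miR-150-5p had 8.89 ± 0.793 and 10.4 ± 1.41 units (SD, n = 3 each, log2 fold change 0.25), and the leukocyte miR-142-3p 3.94 ± 3.37 and 3.25 ± 1.13 units (SD, n = 3 each, log2 fold change 0.020), in control and TGF-β, and both overlapped between the groups. The median log2 fold change was 0.25 over the 5 tested, compared with -0.013 over all tested miRNAs. Of the 5, miR-451a (0.66) and miR-223-3p (0.45) entered the test only through the TGF-β arrays, so the filter favoured their direction and raised this median. Of the 5 that could be tested, limma called 0, where it called 3.98% of all tested miRNAs, and their part in the results was not tested.

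**Figure D1:**
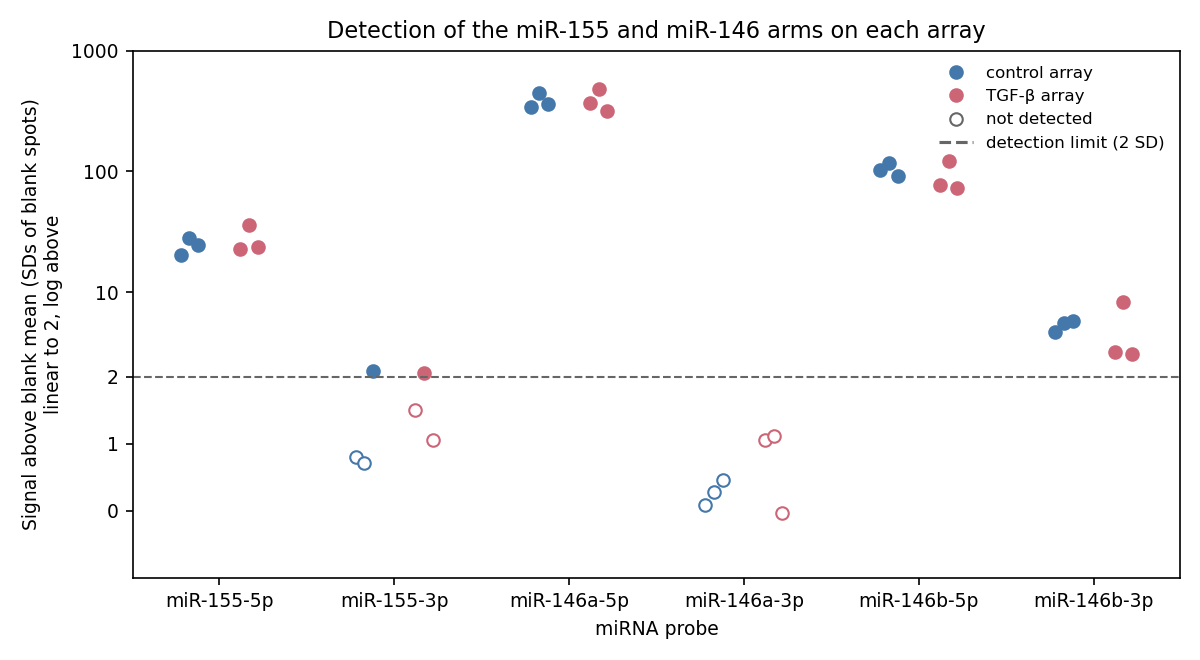
Signal of each arm above the mean of the blank spots, in SDs of the blank spots of the same array, on an axis that is linear to 2 and logarithmic above. Each point is 1 array (blue, control; red, TGF-β; open, not detected) and the dashed line is the detection limit of 2 SD. The 5p arms lay well above the limit on all 6 arrays, miR-146b-3p lay closer to it, and miR-155-3p crossed it on 1 array of each group. Heights of different probes are not comparable as levels of RNA.

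Detection divided the arms. miR-155-5p, miR-146a-5p, miR-146b-5p and miR-146b-3p were detected on all 6 arrays, while miR-155-3p, the passenger arm of miR-155, passed the limit on 1 control and 1 TGF-β array and did not enter the test. The plot of signal in SDs of the blank spots shows where each array lay. miR-155-5p was 20.3 to 28.0 SDs above the blank mean in control cells and 22.6 to 36.0 SDs in TGF-β-treated cells. miR-146a-5p was 343 to 443 SDs above it in control cells and 316 to 482 SDs in treated cells. miR-146b-3p, by contrast, was 4.72 to 5.79 SDs above the blank mean in control cells and 3.10 to 8.22 SDs in treated cells, a range in which the noise of a spot is a large share of its value. miR-146a-3p, the remaining arm of these precursors, also has a probe and was not detected on any array.

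miR-155-5p showed no detectable difference between the groups. Above blank, the signals were 13.3, 17.4 and 18.8 units on control arrays 1, 2 and 3, and 14.8, 19.0 and 16.1 units on TGF-β arrays 1, 2 and 3. The groups overlapped, with the lowest value on a control array and the highest on a TGF-β array. After normalization the log2 values were 3.83, 4.19 and 3.99 in control cells and 4.04, 4.21 and 3.97 in treated cells, with SDs of 0.18 and 0.12. The limma fit gave a log2 fold change of 0.066 with a standard error of 0.13 and an adjusted p of 0.905, or 1.05-fold with a 95% interval of 0.852 to 1.28. The exact permutation test, 2-sided, gave p = 0.7. Fewer cells with a miRNA and less of it per cell cannot be told apart in such RNA from whole cultures. Without control replicate 1 the log2 fold change was -0.019, and without TGF-β replicate 2 it was -0.0014, so that its sign rested on single arrays.

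miR-155-3p was at the limit of the method. Above blank it had 0.519, 0.444 and 1.70 units on control arrays 1, 2 and 3 and 0.987, 1.13 and 0.712 units on TGF-β arrays 1, 2 and 3, or 0.714 to 2.22 SDs of the blank spots. The array with the highest value in each group was the one on which it was called detected. The values of the groups overlapped, and no fold change is given, since most of the values were below the limit.

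miR-146a-5p, the arm of miR-146a that represses IRAK1 and TRAF6, was far above the blank spots in both groups, though not above its local background on every array, and did not pass the test. Control arrays 1, 2 and 3 gave 224, 275 and 279 units above blank, and TGF-β arrays 1, 2 and 3 gave 240, 255 and 214 units. The lowest of the 6 values was on a TGF-β array, but the groups overlapped. The normalized log2 values were 8.03 ± 0.17 (SD, n = 3) for control and 7.89 ± 0.17 (SD, n = 3) for TGF-β. The limma fit gave a log2 fold change of -0.14 with a standard error of 0.11 and an adjusted p of 0.649, or 0.908-fold with a 95% interval of 0.770 to 1.07. The exact permutation test gave p = 0.4 (2-sided). With the local background of each spot in place of the blank spots it was 0.51 with a standard error of 0.44, so that even the direction depended on the background. The local background of this probe was 49.0% to 102% of its signal on single arrays. It was also a large share for the other tested arms: 66.9% to 98.8% for miR-155-5p, 56.5% to 99.7% for miR-146b-5p and 67.9% to 91.7% for miR-146b-3p.

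**Figure D2:**
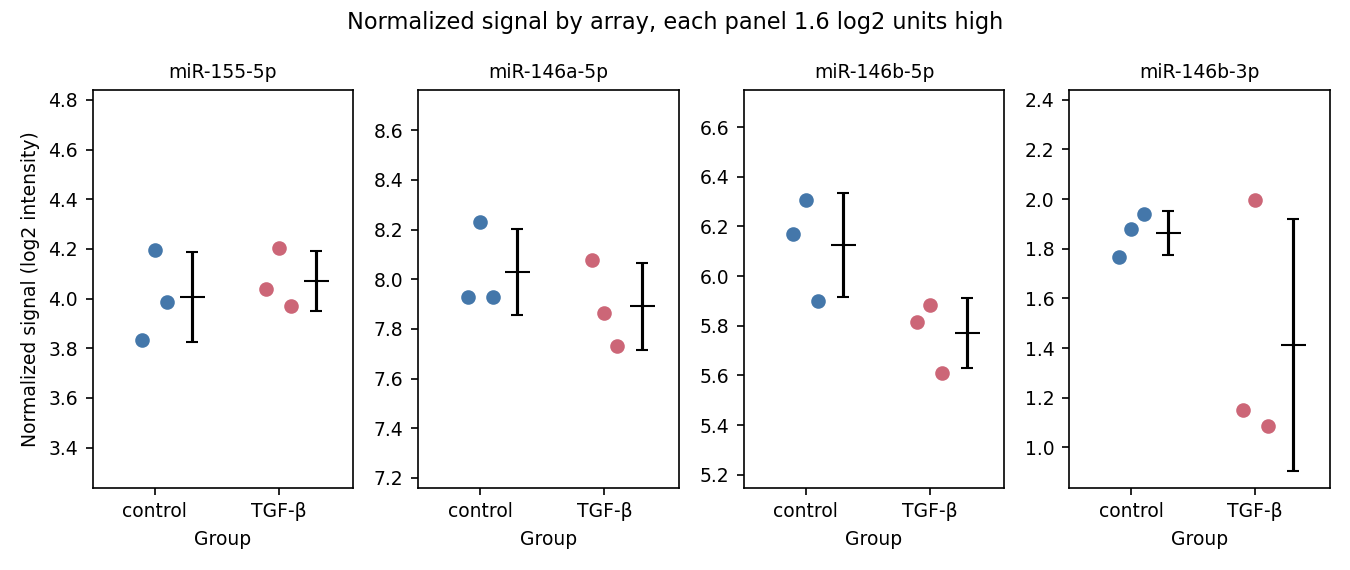
Normalized signal (log2 intensity) of the 4 arms detected on all arrays, by group. Points are arrays, the bar with whiskers beside them is the mean ± SD (n = 3), and each panel covers the same span of log2 units. miR-155-5p and miR-146a-5p overlapped between the groups, all TGF-β arrays of miR-146b-5p lay below all control arrays by a narrow gap, and 1 TGF-β array of miR-146b-3p lay above all control arrays.

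miR-146b-5p had the largest difference relative to its error among these arms, and it did not pass the adjusted threshold. The signal of miR-146b-5p above blank was 66.6, 73.0 and 71.1 units on control arrays 1, 2 and 3 and 50.4, 64.8 and 49.99 units on TGF-β arrays 1, 2 and 3. Every TGF-β array lay below every control array, with TGF-β replicate 2 the closest to the control values. The normalized log2 values were 6.17, 6.31 and 5.90 in control cells and 5.81, 5.88 and 5.61 in treated cells, and they did not overlap, though by a gap of 5.88 against 5.90 only. Such a separation downwards was seen for 10.1% of all tested miRNAs. The limma fit gave a log2 fold change of -0.36 with a standard error of 0.12 and an adjusted p of 0.195, or 0.781-fold with a 95% interval of 0.649 to 0.941 that is not adjusted for the number of miRNAs tested. The unadjusted p was 0.0139 in limma, and the exact permutation test gave p = 0.1 (2-sided), the smallest that 3 arrays against 3 allow. In the authors' processed intensities, miR-146b-5p was 276 ± 38.0 (SD, n = 3) for control and 239 ± 62.2 (SD, n = 3) for TGF-β, and there the groups overlapped, with 310 on TGF-β replicate 2.

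miR-146b-3p, the other arm of the same precursor, was close to the background. Of the tested arms, its normalized log2 values varied most among the TGF-β arrays and least among the control arrays. Above blank, its control SD was 0.704 on a mean of 3.66 units, against 3.29 on 70.2 for miR-146b-5p, so it was not the steadiest there. For miR-146b-3p the signals above blank were 3.08, 3.47 and 4.44 units on control arrays 1, 2 and 3 and 2.11, 4.34 and 2.11 units on TGF-β arrays 1, 2 and 3. On TGF-β replicates 1 and 3 it lay below all control arrays, while on replicate 2 it lay among them, and after normalization above them. The normalized log2 values were 1.86 ± 0.089 (SD, n = 3) for control and 1.41 ± 0.51 (SD, n = 3) for TGF-β. The limma fit gave a log2 fold change of -0.45 with a standard error of 0.28 and an adjusted p of 0.529, or 0.732-fold with a 95% interval of 0.480 to 1.11. Without TGF-β replicate 2 the log2 fold change was -0.74 with an adjusted p of 0.215 from limma. It moved the other way without TGF-β replicate 1, to -0.32, and without TGF-β replicate 3, to -0.28 (adjusted p of 0.784 and 0.815 from limma). TGF-β replicate 2 was also the array with the lowest SD of the blank spots, 0.528 units, and the most detected miRNAs, 1787, and the part of these in the result was not tested.

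Since the 5p arms of miR-146a and miR-146b share their first bases, their changes were compared within each array, a test added after the values were seen. The log2 difference of miR-146b-5p minus miR-146a-5p was -1.76, -1.92 and -2.03 on control arrays 1, 2 and 3 and -2.26, -1.98 and -2.12 on TGF-β arrays 1, 2 and 3. The values overlapped, since that of TGF-β replicate 2 was above that of control replicate 3. The difference between the groups was -0.22 (exact permutation test, 2-sided p = 0.2), and before normalization it was -0.23 with p = 0.1, the smallest possible, as the groups were then just apart. It was -0.62 with the local background of each spot and -0.14 without background correction. As the exact permutation test cannot give a p below 0.1 at this number of arrays, it cannot decide whether miR-146b-5p changed apart from miR-146a-5p. Over all 6 arrays the log2 values of the 2 miRNAs had a Pearson r of 0.731, and those of miR-146b-5p and miR-146b-3p one of 0.636. As the arrays share a slide by group, these describe the arrays and are not tests.

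Among the 4 tested arms, 0 were called by limma at an adjusted p under 0.05, where 3.98% of all 1457 tested miRNAs were called (38 higher and 20 lower with TGF-β). At an unadjusted p under 0.05, limma had 1 of the 4, miR-146b-5p, compared with 13.9% of all tested miRNAs, and the methods' t-test had 0 before adjustment, compared with 13.3% of all tested miRNAs, and 0 after it, compared with 1.17%. Every TGF-β array was below every control array for 1 of the 4, compared with the 10.1% of all tested miRNAs given above. Of the 4, 3 were lower on average, compared with 52.5% of all. The median log2 fold change was -0.25 over the 4 arms and -0.013 over all tested miRNAs. In the analysis as reported, the intervals for miR-155-5p and miR-146a-5p lay within 1.5-fold in either direction. Those of 51.4% of the tested miRNAs did too, while the intervals of both miR-146b arms reached further down. For miR-146a-5p this depended on the background, since its log2 fold change with the local background was 0.51 with a standard error of 0.44.

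**Figure D3:**
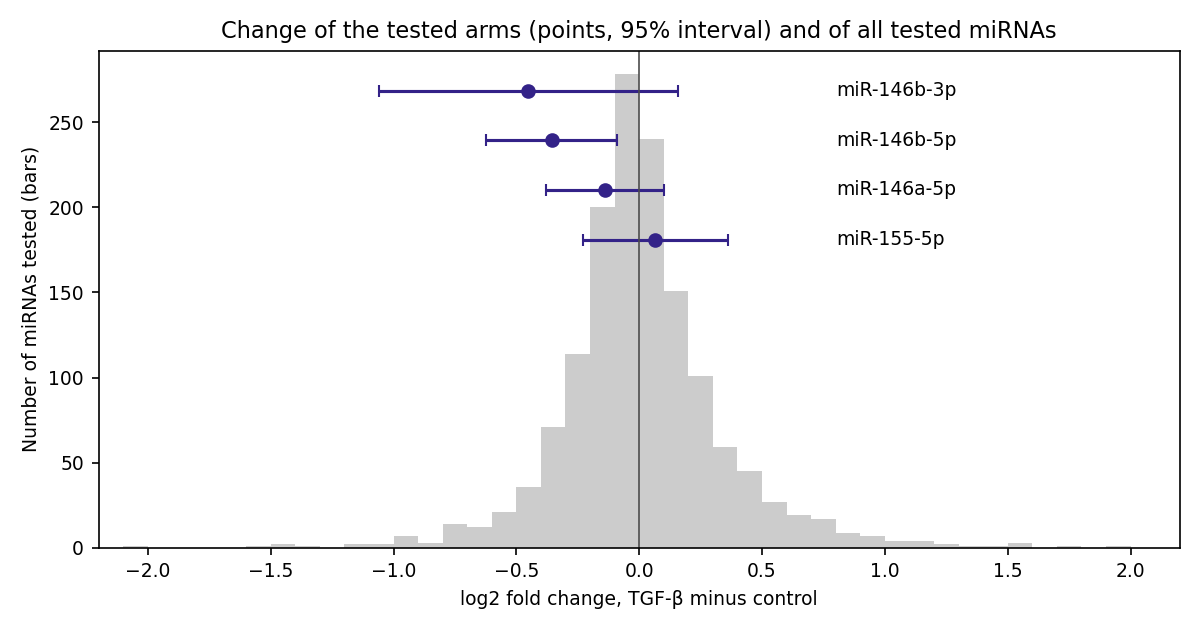
Log2 fold change, TGF-β minus control, of the 4 tested arms (points with 95% intervals, at heights chosen for legibility) over the distribution of all 1457 tested miRNAs (grey bars, number of miRNAs per 0.1 log2 unit). Only the interval of miR-146b-5p excludes 0, before adjustment for the number of miRNAs tested.

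**Figure D4:**
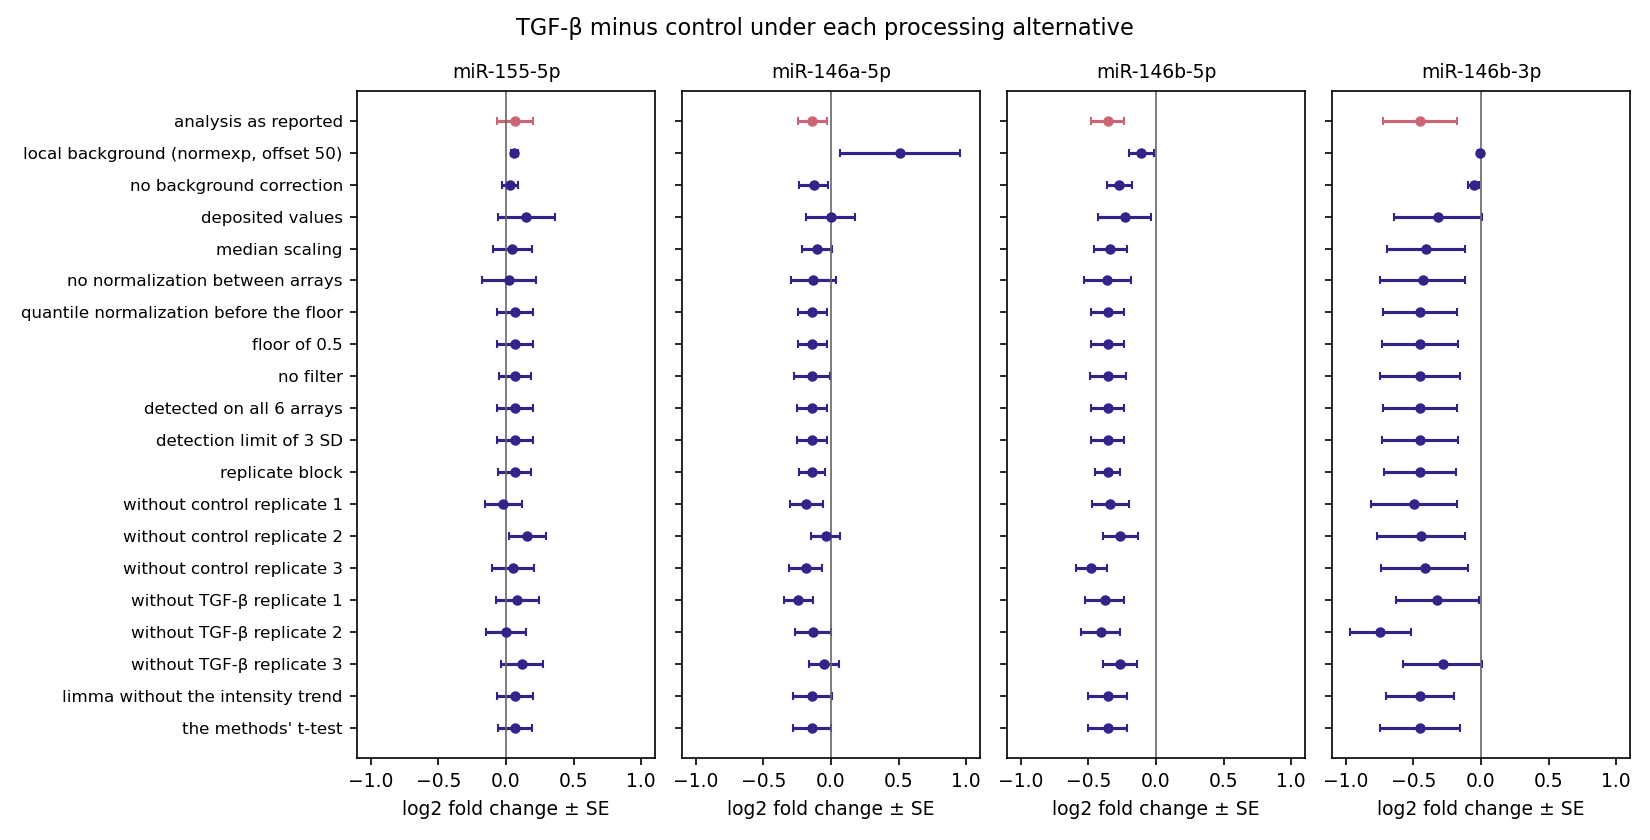
Log2 fold change with its standard error for each tested arm, under the analysis as reported (red) and the 19 alternatives (blue). miR-146b-5p and miR-146b-3p were below 0 in all of them, miR-155-5p changed sign when either of 2 arrays was left out, and miR-146a-5p changed sign with the local background.

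The plot of the alternatives shows how far each value moved with the processing. In all 19 alternatives, 0 of the 4 arms were called, while the share of all tested miRNAs called ran from 0% with the local background to 4.37% among those detected on all 6 arrays. miR-146b-5p lay between -0.48 and -0.11 with an adjusted p of 0.0582 to 0.990, the lowest when control replicate 3 was left out. miR-146b-3p lay between -0.74 and -0.0070. With the deposited values all tested miRNAs had a median log2 fold change of 0.11, against which miR-155-5p was 0.15, miR-146a-5p -0.0031, miR-146b-5p -0.23 and miR-146b-3p -0.32.

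Other miRNAs commonly described as regulated by NF-κB or Toll-like receptor signalling were read from the same fit. Of 16 such miRNAs, which include miR-146a-3p and the blood cell miRNA miR-223-3p, 15 were tested, 1 rose, 1 fell and 13 did not pass (miR-31-5p passed with the replicate block and with median scaling), where limma called 3.98% of all tested miRNAs. The median of their log2 fold changes was 0.039 over the 14 other than miR-21-5p, whose value is fixed by its rank, from -0.83 to 0.77, compared with -0.013 over all tested miRNAs. The lowest value, -0.83, was that of miR-147a, detected on 3 control and 2 TGF-β arrays. miR-223-3p (0.45) was detected on 1 control and 3 TGF-β arrays. Each entered the test only through the group where it was higher, so the filter favoured its direction. miR-125b-5p, which is known to target TNF and is repressed on activation of macrophages, rose. Its signals above blank were 722, 831 and 945 units on the control arrays and 1264, 1406 and 1585 units on the TGF-β arrays, and the groups did not overlap. In limma its log2 fold change was 0.77, with a standard error of 0.079 and an adjusted p of 0.000132. miR-187-3p, a miRNA induced by IL-10 in monocytes, fell. Its signals above blank were 29.7, 28.4 and 37.5 units on the control arrays and 16.5, 21.5 and 22.6 units on the TGF-β arrays, again without overlap. In limma its log2 fold change was -0.66, with a standard error of 0.11 and an adjusted p of 0.00583. Both calls were lost with the local background (adjusted p = 0.990), without a filter (0.0546) and with the methods' t-test (0.0684). The first of these moved miR-125b-5p to 0.98 (standard error 1.40) and miR-187-3p to -0.065 on the log2 scale, while the other 2 left both log2 fold changes as they were. The call of miR-187-3p was also lost with the deposited values (0.306) and without TGF-β replicate 2 (0.0531), at log2 fold changes of -0.53 and -0.66. With the deposited values the median of all tested miRNAs was 0.11.

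**Figure D5:**
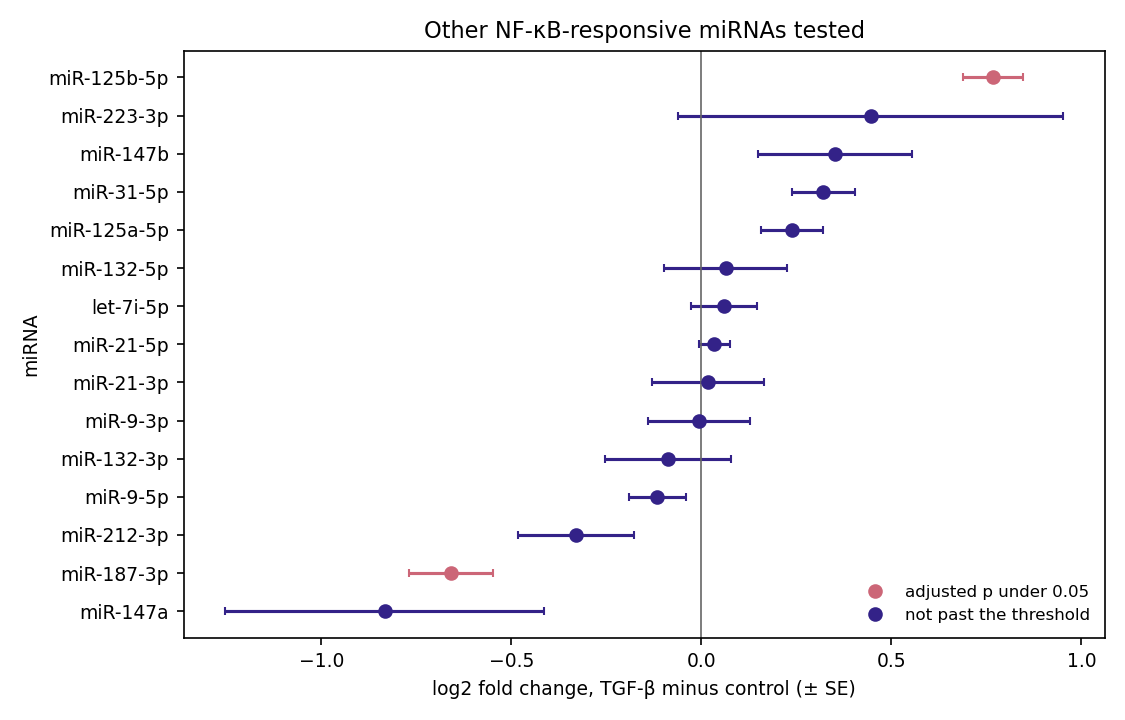
Log2 fold change, TGF-β minus control, with its standard error for the 15 tested miRNAs of the NF-κB-responsive list. miR-125b-5p (0.77) and miR-187-3p (-0.66) were past an adjusted p of 0.05 (red), and the other 13 were not (blue). The value of miR-21-5p is fixed by its rank in the quantile normalization. miR-147a and miR-223-3p entered the test only through the group where they were higher.

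Among the brightest miRNAs of this list, miR-31-5p had 2176 to 2909 units above blank on the control arrays and 3080 to 4033 on the TGF-β arrays, with no overlap. Its log2 fold change was 0.32 (adjusted p = 0.0631 from limma), and 0.55 with an adjusted p of 0.00562 when the arrays were scaled by their median. With the replicate number as a block its adjusted p was 0.0341, at the same log2 fold change. miR-21-5p, a miRNA high in most carcinoma cells, had 18355 to 25450 units above blank on the control arrays and 19379 to 20226 on the TGF-β arrays, which lay within the control range. Its rank was so high that quantile normalization gave it the same value on 5 of the 6 arrays, and its fold change of the normalized values is not read. miR-9-5p, induced by NF-κB in myeloid cells, had a log2 fold change of -0.12 (standard error 0.076).

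miR-3142, whose gene lies with MIR146A inside MIR3142HG and 10826 bp from it, was added after the values of the 5 arms were seen. It was detected on all 3 control arrays and on none of the 3 TGF-β arrays, with signals above blank of 1.59, 1.49 and 3.02 units in control cells and 0.760, 0.968 and 1.03 units in treated cells. The groups did not overlap, but every value was within 4 SDs of the blank mean. As it entered the test only through the control arrays, the direction of its difference was fixed by the filter, and no fold change or test is given.

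The miRNAs whose normalized values were most like those of each arm over the 6 arrays were found among the 1281 others detected on every array. They were miR-433-3p, miR-6762-3p and miR-6846-3p for miR-155-5p, with Pearson r of 0.981, 0.980 and 0.945. For miR-146a-5p they were miR-6511b-5p, miR-499a-5p and miR-34c-3p (0.947, 0.926 and 0.905), and for miR-146b-5p they were miR-425-3p, miR-524-5p and miR-3141 (0.977, 0.974 and 0.964). For miR-146b-3p they were miR-2278, miR-4700-5p and miR-7847-3p (0.972, 0.961 and 0.958). None of these 12 miRNAs was called by limma, where it called 3.98% of all tested miRNAs. They were picked for their likeness to arms that were themselves not called, so this is not a separate result. With 6 arrays and 1281 candidates such values of r describe the arrays only.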

How the data were processed

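Panc-1 RNA was hybridized to 6 miRNA arrays, 3 per group. Per the file headers, the deposited scanner files give a median intensity for every spot (3200 per array) and another for the background around it; they are linear and not normalized. They also deposited a table of processed intensities; rebuilt from the scanner files as blank-subtracted signals scaled to an array median of 25, its values differed by at most 0.500, which is rounding. The array software is not given in the sources used here.

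The mean of the 320 blank spots, with 5% left out at each end, was subtracted, values below 1 were set to 1, and log2 values were quantile normalized over the miRNA probes. Quantile normalization gives equal values to equal ranks. Flagged spots (3 in all, none of these arms) were set as missing. The local background was used only as an alternative, because earlier results of these data showed that it rises with the spot's own signal. The groups were compared in R 4.3.3 with limma 3.58.1 (lmFit and eBayes with an intensity trend, 2-sided), with Benjamini-Hochberg adjustment over the 1457 miRNAs (56.8% of 2565) that all 3 arrays of either group detected. An exact permutation test was added for single miRNAs. The number of arrays limits the precision. The procedure was tested on simulated data. Python 3.11.15 and matplotlib 3.10.9 drew the figures.

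The arms and lists were chosen with earlier results of these data known. Named were all 5 arms, other arms of their precursors, miRNAs that share a seed or lie within 4 edits, the 3 miRNAs most alike over the arrays for each arm, and, of the lists (16 NF-κB-responsive miRNAs, 7 of blood cells, 4 of acinar and islet cells, 5 epithelial, and miR-21-5p for carcinoma lines), those past the threshold, with up to 4 examples of the highest signal. The alternatives are those of the closing section.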

Additional observations from a re-analysis of the deposited data

How the results depend on the processing

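No arm of miR-155 or miR-146 was called in any of the 19 alternatives, which called 0% to 4.37% of all tested miRNAs, and none of the blood cell miRNAs that entered the test in each. The log2 fold change of miR-155-5p ranged from -0.019 (without control replicate 1) to 0.16 with 1 array left out, and was -0.0014 without TGF-β replicate 2. That of miR-146a-5p ranged from -0.24 to -0.038 with 1 array left out and was 0.51 with the local background. The ranges with 1 array left out were -0.48 to -0.26 for miR-146b-5p, -0.74 to -0.28 for miR-146b-3p and -0.29 to -0.14 for the change of miR-146b-5p minus that of miR-146a-5p, which was -0.62 with the local background and -0.14 without background correction. miR-155-3p was below the filter and has no value here. The cause of these differences was not tested, beyond the fewer arrays.

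Over all miRNAs, 38 were called higher and 20 lower. The counts were 0 and 0 with the local background, 14 and 5 without a filter, 23 and 9 without the intensity trend, and 12 and 5 with the methods' t-test, which had 194 before adjustment. The lower calls were 4 with the deposited values, 12 with median scaling and 8 without normalization between arrays. With 1 array left out there were 17 to 32 higher and 7 to 19 lower calls. Of the NF-κB-responsive list 2 were called, 0 with the local background, without a filter and with the methods' t-test, 1 with the deposited values, 3 with median scaling, and 1 to 2 with 1 array left out (1 without TGF-β replicate 2).

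Arrays with the same replicate number also had the same place on their slides. The deviations of same-numbered arrays correlated at 0.13, 0.11 and -0.027 over 1282 miRNAs, so that not every pair was above the limit of 0.1 and they were not counted as pairs. With the local background the correlations were 0.30, 0.48 and 0.25, all above it. The local-background results given here come from a fit without the replicate number as a block, which was used only with the blank-spot background. With the replicate number as a block, 39 miRNAs were called higher and 21 lower, 3 of the NF-κB-responsive list (miR-31-5p beside the others, adjusted p = 0.0341 from limma), and miR-146b-5p kept -0.36 with an adjusted p of 0.0762. Signal over background limits miR-155-3p, miR-146a-3p and miR-3142, for which no fold change is given.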
